A study of Mus musculus with 108 samples.

Results

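Cp, Ptgis, Enpep, Npr3, Frem1, Dcn, Mdfic and Anxa8 are 8 of the 53465 genes counted in bulk RNA-seq of the brain of Cul3 mutant and wild-type (WT) mice. They were chosen by their levels in these libraries, since most were higher in mutants than in WT mice at postnatal day 7 (P7), and several are known from fibroblasts, pericytes and other cells of mesenchymal kind. The P7 difference between genotypes is therefore given below as a description, with no test. Every library was made from 1 region of 1 mouse, namely cerebral cortex (CX), hippocampus (HIP) or cerebellum (CB), in embryos at E17.5, at P7 or in adults. Mutants, written Cul3+/-, carried a germline frameshift of 1 inserted base in exon 6 of 1 Cul3 allele, made with CRISPR/Cas9 and descended from 1 founder, so that every cell of the animal carried it and the other allele was intact. Mice were of the strain labelled C56Bl/6N, spelled C57BL/6N in the study's methods, none had been given a drug or a transgene, and the labels give no sex. Each region had 6 WT and 6 mutant mice at E17.5 and at P7 and 5 of each in adults, 34 mice with 3 libraries each. The adult mice carry P35 in their names, and 2 of them were left out because 2 sources gave them different genotypes.

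CUL3 is the scaffold of a family of ubiquitin ligases, which mark proteins for degradation through adaptors with a BTB domain. In the brain, cells of mesenchymal kind lie outside the neural tissue proper: fibroblasts form the meninges and sleeve larger vessels, pericytes wrap capillaries, and a fibroblast stroma fills the choroid plexus under its epithelium. These cells deposit collagens, proteoglycans and basement membrane, and they carry enzymes and receptors that act on circulating hormones. The 8 genes sort by role into enzymes (Cp, Ptgis, Enpep), a hormone receptor (Npr3), matrix proteins (Frem1, Dcn) and intracellular binding proteins (Mdfic, Anxa8).

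Total counts ran from 15126114 to 44411282 per library. Levels are given in CPM, the count of a gene over the TMM-scaled size of its library, and a difference between groups is a log2 fold change from edgeR's quasi-likelihood fit over all genes that passed a count filter. A gene was called at a Benjamini-Hochberg adjusted p below 0.1. The targeted gene, Cul3, stood at 50.1% to 61% of its WT level in the mutants of the 9 period-by-region groups, and it was called in each. In bulk tissue, fewer cells of a type and less RNA per cell cannot be told apart. Each library of a group came from a different mouse, and the labels give no litter or date.

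All 8 genes are protein-coding and lie on 7 chromosomes (GRCm38). Cp is at chr3:19957054-20009145 and Enpep at chr3:129269175-129332720. Ptgis is at chr2:167191805-167240604, Npr3 at chr15:11839896-11907287, Frem1 at chr4:82897920-83052339, Dcn at chr10:97479609-97518143, Mdfic at chr6:15720661-15802169 and Anxa8 at chr14:34085981-34100571. Enpep, Ptgis, Npr3 and Frem1 are on the minus strand and the other 4 on the plus strand.

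Because 7 of the genes shared a direction at P7, the 250 bases before their transcription starts were compared for short motifs. RefSeq promoter entries (GRCm38.p6) matched 6 of the 8 genes by symbol, giving 8 windows. Of these, 3 that lie ahead of every annotated transcript start of their gene are printed 5′ to 3′, with capitals marking matches on either strand to AP-1 (TGANTCA), to the TEAD site (GGAATG), to the TATA box (written TATAAA here), to the box named CCAAT and to the GC box (GGGCGG). They were picked to show 1 window with an AP-1 match, 1 with TATA and CCAAT matches and 1 with no match.
Cp, chr3:19956804-19957053, plus strand: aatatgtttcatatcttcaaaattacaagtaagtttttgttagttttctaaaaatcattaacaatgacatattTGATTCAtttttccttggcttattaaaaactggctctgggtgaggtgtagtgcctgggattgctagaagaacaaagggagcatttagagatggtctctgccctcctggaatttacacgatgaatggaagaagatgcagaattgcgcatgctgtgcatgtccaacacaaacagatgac
Enpep, chr3:129332750-129332999, minus strand: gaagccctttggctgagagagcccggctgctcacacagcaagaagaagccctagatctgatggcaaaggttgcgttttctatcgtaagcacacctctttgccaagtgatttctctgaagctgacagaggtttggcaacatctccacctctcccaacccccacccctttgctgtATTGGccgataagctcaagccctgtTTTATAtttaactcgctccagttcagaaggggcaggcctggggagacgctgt
Anxa8, chr14:34085729-34085978, plus strand: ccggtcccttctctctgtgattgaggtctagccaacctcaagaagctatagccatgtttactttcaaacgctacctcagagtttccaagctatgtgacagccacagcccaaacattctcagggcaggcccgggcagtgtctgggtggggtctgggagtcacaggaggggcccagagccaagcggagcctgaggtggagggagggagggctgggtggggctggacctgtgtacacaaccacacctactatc
The core of the antioxidant response element (TGACNNNGC), the site of NRF2, a known substrate of a CUL3 ligase, was in 0 of the 8 windows and in 10.2% of 32851 windows over all genes. AP-1 matches were in 1 of 8 (6.75% of all windows), TEAD in 1 (12.6%), TATA in 2 (12.4%), CCAAT in 3 (33.8%), GC box in 1 (32.7%) and the E-box (CANNTG, left in lower case) in 7 (66.2%). No motif was shared by all 8 windows. A match is only a run of letters, and its absence says nothing of a factor's binding elsewhere.

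The name mesenchymal was checked in the data against marker lists. Over the libraries of the 34 mice, each gene's log2 CPM was taken as its deviation from the mean of its own period, region and genotype, so that group differences played no part. The mean deviation of the 8 genes had a Pearson correlation of 0.775 with that of 20 meningeal and perivascular fibroblast markers, 0.748 with border macrophages, 0.739 with endothelium, 0.708 with the arachnoid barrier, 0.704 with choroid plexus epithelium, 0.668 with mural cells, 0.0252 with microglia and -0.218 with neurons. These are descriptions over libraries that share mice, depth and dissection. Cp (0.638), Dcn (0.628), Frem1 (0.615), Ptgis (0.604) and Enpep (0.547) were the closest to the fibroblast markers. Npr3 had the lowest value, 0.138, and its correlation with choroid plexus markers was 0.599. Mdfic followed the choroid plexus list at 0.818 and the fibroblast list at 0.404, and Frem1 also stood higher with choroid plexus, at 0.646. Cp was nearer to the arachnoid (0.675) and endothelial (0.65) lists, Enpep to endothelium (0.614) and Anxa8 to ependyma (0.551, against 0.357 with fibroblasts). Of the 8 genes, Dcn and Ptgis thus had the fibroblast list as their closest, and all are called by their own names here. All 28 pairs of the 8 genes had a correlation above 0, with a median of 0.322, from 0.0922 for Npr3 and Dcn to 0.685 for Frem1 and Mdfic.

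At P7, 8 of the 8 genes had a fold change above 0 in CX, 7 in HIP and 8 in CB. Over all genes tested, the share above 0 was 50% in CX, 52.5% in HIP and 51.7% in CB, and 14.2% of 16425 genes were above 0 in all 3 regions. The median log2 fold change of the 8 genes was 0.28 in CX, 0.43 in HIP and 0.48 in CB, against 6.67e-05, 0.0069 and 0.0035 over all genes. None of the 8 was called in CX (0.00566% of genes were), in HIP (0.00563%) or in CB (0.0057%). These counts follow from how the genes were chosen, and nothing is read from them. The libraries themselves are described gene by gene.

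**Figure D1:**
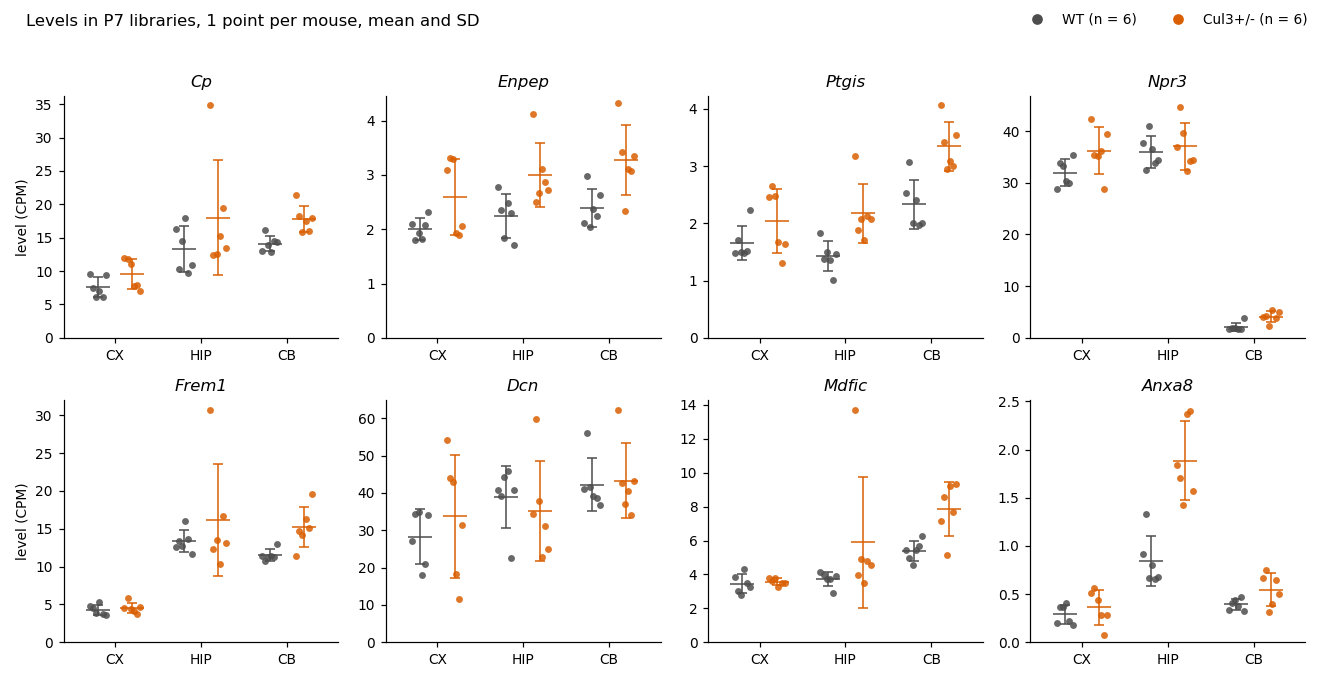
Level in CPM (vertical axis, from 0) of each gene in P7 libraries of CX, HIP and CB, with 1 point for each of 6 WT and 6 Cul3+/- mice per region and bars for the mean and SD. Groups overlap in every panel except Anxa8 in HIP, where mutants run from 1.43 to 2.40 CPM and WT mice from 0.661 to 1.33, and 1 mutant stands high in HIP for Cp, Frem1 and Mdfic.

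Cp encodes ceruloplasmin, a copper-bearing ferroxidase that loads iron onto transferrin and is made in brain by astrocytes and meningeal cells. In CX its lowest, median and highest level was 6.13, 7.25 and 9.60 CPM in WT mice and 7.0, 9.50 and 12 in mutants. In HIP it was 9.74, 12.8 and 17.9 in WT mice and 12.4, 14.4 and 34.8 in mutants. In CB it was 12.9, 14.1 and 16.1 in WT mice and 15.8, 17.8 and 21.3 in mutants. The genotypes overlapped widely in CX and HIP and by 1 narrow margin in CB, where every mutant lay above the WT median. The log2 fold changes were 0.34 (SE 0.16), 0.44 (SE 0.25) and 0.36 (SE 0.08), close to each other over the 3 regions. The highest HIP value belonged to mutant mouse C1_3, and the next highest mutant was at 19.4.

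Ptgis encodes prostacyclin synthase, which makes the vasodilator prostacyclin in vessel walls and fibroblasts. In CX the lowest, median and highest level was 1.48, 1.51 and 2.24 CPM in WT mice against 1.31, 2.07 and 2.66 in mutants. HIP gave 1.01, 1.42 and 1.82 against 1.71, 2.08 and 3.18. CB gave 1.97, 2.21 and 3.06 against 2.94, 3.25 and 4.07. In HIP and CB each mutant lay above the WT median, with an overlap of a few libraries at the edges, while in CX the lowest mutant was under every WT mouse. In log2 the differences were 0.30 (SE 0.18), 0.61 (SE 0.17) and 0.54 (SE 0.13).

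Enpep encodes aminopeptidase A, a surface enzyme of pericytes that turns angiotensin II into angiotensin III. In CX its lowest, median and highest level was 1.80, 2.00 and 2.33 CPM in WT mice and 1.89, 2.57 and 3.31 in mutants. HIP libraries held 1.71, 2.33 and 2.78 in WT mice and 2.5, 2.80 and 4.13 in mutants. CB libraries held 2.04, 2.31 and 2.98 in WT mice and 2.34, 3.23 and 4.33 in mutants. All mutants were above the WT median in HIP and CB and 4 of 6 in CX, and the groups overlapped in each region. The log2 fold changes were 0.37 (SE 0.16), 0.42 (SE 0.15) and 0.47 (SE 0.15).

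Npr3 encodes the natriuretic peptide clearance receptor, which takes up these peptides and removes them. Its lowest, median and highest level in CX was 28.9, 31.8 and 35.3 CPM in WT mice and 28.8, 35.7 and 42.3 in mutants. In HIP the same values were 32.5, 35.5 and 40.9 against 32.3, 35.7 and 44.6. In CB they were 1.66, 1.78 and 3.82 against 2.25, 4.11 and 5.43. The difference between genotypes was thus at its largest where the gene was lowest: the log2 fold changes were 0.18 (SE 0.08) in CX, 0.04 (SE 0.08) in HIP and 0.99 (SE 0.24) in CB. In CB, 4 of 6 mutants lay above every WT mouse, and WT mouse C2_10 stood apart from the other WT mice, whose highest was 1.89.

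Frem1 encodes a matrix protein of the Fraser complex, which anchors epithelia to the mesenchyme below them. The lowest, median and highest level in CX was 3.59, 4.22 and 5.25 CPM in WT mice and 3.68, 4.44 and 5.79 in mutants. For HIP the values were 11.7, 13 and 16 in WT mice and 10.4, 13.3 and 30.7 in mutants. For CB they were 10.7, 11.4 and 13 in WT mice and 11.4, 14.9 and 19.6 in mutants. CX and HIP overlapped almost wholly, with mutant C1_3 alone far above the rest in HIP, while in CB all mutants were above the WT median. In log2 its fold changes were 0.08 (SE 0.12), 0.28 (SE 0.22) and 0.43 (SE 0.10).

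Dcn encodes decorin, a small leucine-rich proteoglycan that binds collagen fibrils and is a marker of fibroblasts. In CX its lowest, median and highest level was 17.9, 30.6 and 34.8 CPM in WT mice and 11.7, 37.1 and 54.1 in mutants. In HIP WT mice held 22.5, 40.7 and 46.0 and mutants 22.9, 32.7 and 59.7. In CB WT mice held 36.6, 40.1 and 56.0 and mutants 34.0, 41.5 and 62.3. Mutants spread on both sides of the WT mice in CX and CB, and in HIP only 1 of 6 was above the WT median. The log2 fold changes were 0.26 (SE 0.31), -0.15 (SE 0.22) and 0.06 (SE 0.14), so Dcn, the member best known as a fibroblast gene, was not higher in P7 mutants in HIP, and averaged over regions it stood at -0.03.

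Mdfic encodes an I-mfa domain protein, which binds and holds back transcription factors and also acts on mechanically gated PIEZO channels. In CX the lowest, median and highest level was 2.81, 3.38 and 4.29 CPM in WT mice and 3.24, 3.56 and 3.77 in mutants. In HIP it was 2.90, 3.82 and 4.15 in WT mice and 3.48, 4.67 and 13.7 in mutants. In CB it was 4.56, 5.43 and 6.24 in WT mice and 5.14, 8.13 and 9.33 in mutants. CX mutants lay inside the WT range, and the HIP mean was drawn up by mouse C1_3, whose nearest mutant was at 4.89. In log2 the fold changes were 0.05 (SE 0.11), 0.66 (SE 0.29) and 0.57 (SE 0.13).

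Anxa8 encodes an annexin, a protein that binds membrane phospholipids when calcium is present. It was the gene of fewest reads, with 22 to 90 reads in a P7 HIP library. In HIP, WT mice ran from 0.661 over a median of 0.736 to 1.33 CPM, and mutants from 1.43 over 1.77 to 2.40. In CX, WT mice held 0.177, 0.288 and 0.406 and mutants 0.0788, 0.362 and 0.567. In CB, WT mice held 0.321, 0.393 and 0.471 and mutants 0.317, 0.572 and 0.750. HIP was the 1 set, of the 24 gene-by-region sets at P7, in which no mutant overlapped a WT mouse with mutants higher, as 0.158% of all genes did there (0.0736% in CX and 0.125% in CB). The log2 fold changes were 0.31 (SE 0.37) in CX, 1.17 (SE 0.21) in HIP and 0.49 (SE 0.23) in CB.

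Averaged over the 3 regions in limma-voom with mouse as a random effect, the P7 log2 fold changes were 0.57 for Anxa8, 0.46 for Ptgis, 0.40 for Npr3, 0.39 for Enpep, 0.36 for Mdfic, 0.34 for Cp, 0.22 for Frem1 and -0.03 for Dcn. None of the 8 was called, as 0.031% of genes were. By mouse, the mean log2 difference of the 8 genes from the WT mean in CX was 0.54 in C1_3, 0.53 in C1_7, 0.42 in C2_5, 0.08 in C2_9, -0.06 in C2_6 and -0.39 in C4_3. The same mutants in CB ran from 0.06 in C2_5 to 0.61 in C1_7, and in HIP from 0.14 in C2_6 to 0.94 in C1_3. A mutant high in 1 region was therefore not always high in another: C4_3, the lowest of all CX libraries, was at 0.39 in CB.

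**Figure D2:**
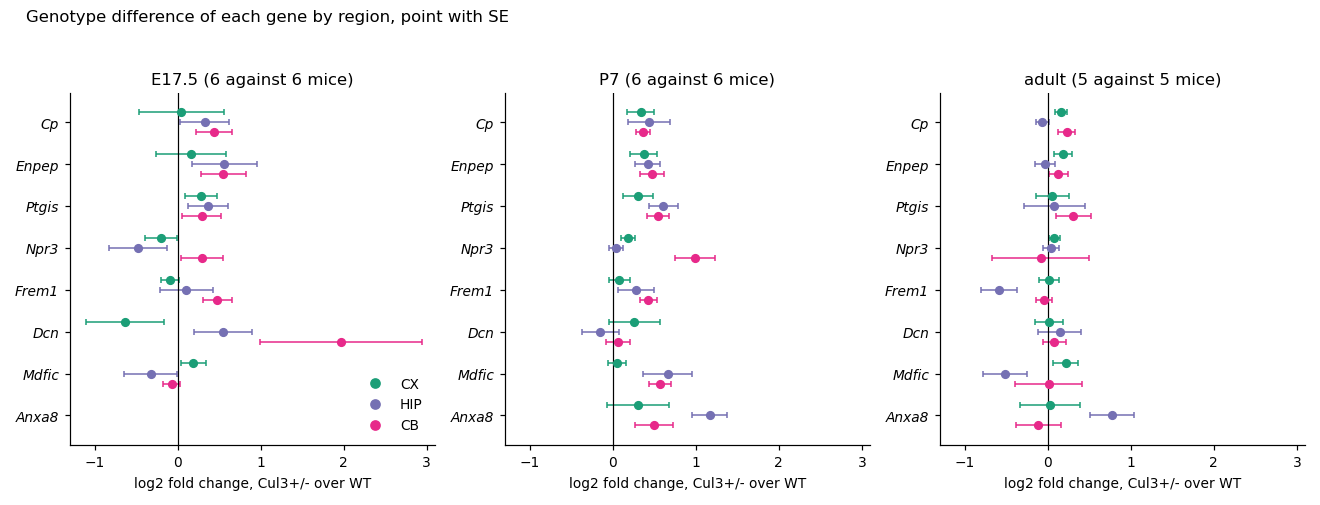
Log2 fold change of Cul3+/- over WT (horizontal axis) for each gene in CX, HIP and CB, as points with SE, at E17.5, P7 and in adults. At P7 all points but Dcn in HIP lie right of 0, while E17.5 and adult points lie on both sides, and Anxa8 at E17.5 is left out for its low counts.

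Markers of the choroid plexus differed between the P7 groups too. Choroid plexus, which secretes cerebrospinal fluid, lies in the ventricles next to HIP and CB. Of the 12 listed genes, 10 were tested in HIP and 10 were higher in mutants, with a median log2 fold change of 2.18, and in CB 12 of 12 were higher with a median of 1.98. Their summed level ran from 61.1 to 225 CPM in WT HIP and from 56.2 to 4727 in mutant HIP, the highest being mouse C1_3. In CB it ran from 111 to 1796 in WT mice and from 128 to 3141 in mutants, and 2 of 6 WT and 5 of 6 mutant libraries passed 400 CPM. In CX no library passed that level: the sum ran from 66.8 to 117 in WT mice and from 69.5 to 94.6 in mutants, with 3 of 9 tested genes higher. Ttr, which encodes transthyretin and led this list, was at 3.85 to 148 CPM in WT HIP and at 4130 in mutant C1_3, while the other 5 mutants held 2.32 to 29.6. The HIP difference thus rested on 1 library: the other 5 mutants had list sums of 56.2 to 97.5 CPM, and without C1_3 only 2 of 10 genes were higher in mutants, with a median of -0.21. No gene of the list was called.

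Without the libraries above 400 CPM, a limit set after the data were seen, 6 WT and 5 mutant mice remained in HIP. The HIP log2 fold changes were then 1.17 for Anxa8, 0.47 for Ptgis, 0.30 for Enpep, 0.21 for Mdfic, 0.14 for Cp, 0.04 for Npr3, -0.02 for Frem1 and -0.15 for Dcn. In CB 4 WT mice and 1 mutant remained, and the values were 0.33 for Npr3, 0.33 for Frem1, 0.30 for Ptgis, 0.12 for Cp, -0.02 for Mdfic, -0.06 for Enpep, -0.27 for Dcn and -0.44 for Anxa8. With all libraries kept and the log2 sum of the list as a covariate, Npr3 in CB went from 0.99 to 0.40 and Mdfic in CB from 0.57 to 0.23, while Ptgis in CB was 0.55 and Anxa8 in HIP was 1.15. Anxa8 in HIP was thus at 1.17 both with and without the 1 library, and no CX library passed the limit. In the HIP libraries that remained, ependymal markers had a median log2 fold change of 0.53. The part of choroid plexus or ependyma in any of these differences, that of Anxa8 and those in CX included, was not tested beyond these values.

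**Figure D3:**
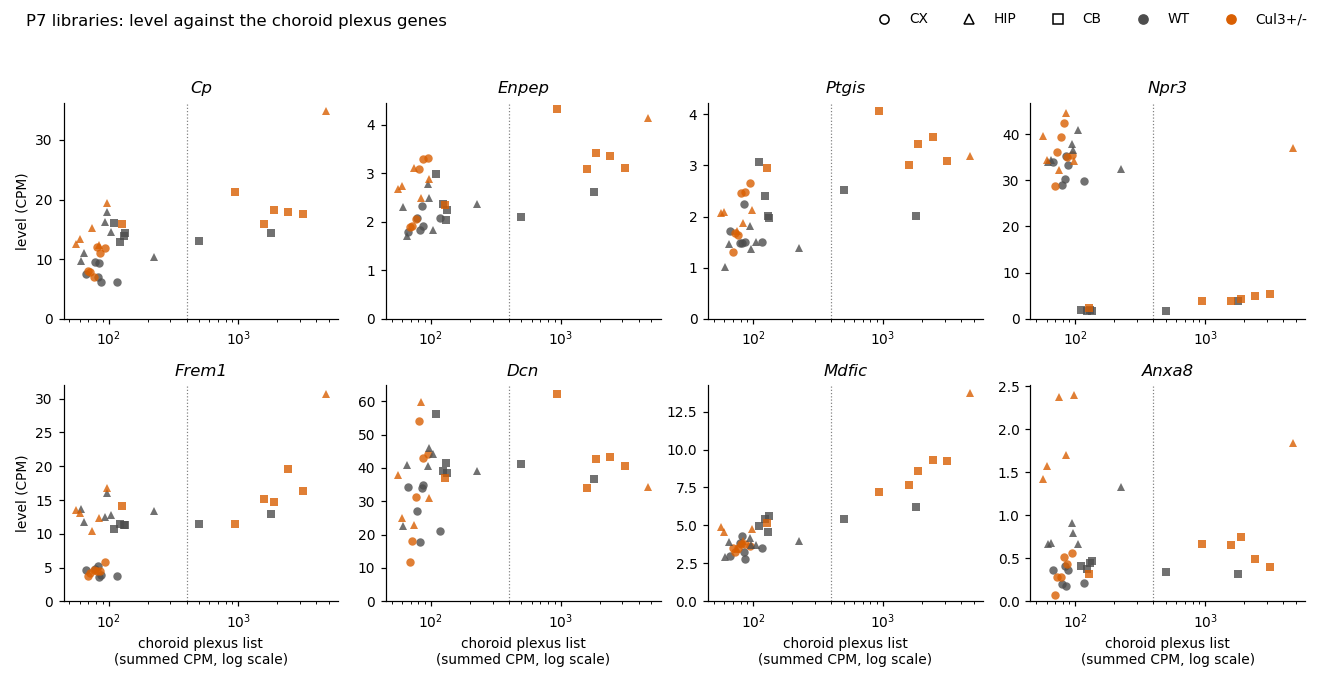
Level of each gene in CPM (vertical axis) against the summed CPM of 12 choroid plexus genes (horizontal axis, log scale) in the 36 P7 libraries, with region by symbol, genotype by colour and a dotted line at 400 CPM. Libraries right of the line are from HIP (1 mutant) and CB (2 WT and 5 mutants), and that HIP library holds the highest HIP level of Cp, Frem1 and Mdfic.

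Among other cell types, fibroblast markers were higher in mutants for 18 of 20 in CX, 18 in HIP and 19 in CB, with medians of 0.28, 0.31 and 0.14, and none was called. Their summed level ran from 617 to 941 CPM in WT and 577 to 1026 in mutant CX, 945 to 1335 and 836 to 1913 in HIP, and 952 to 1265 and 1009 to 1548 in CB. The HIP count rested on mutant C1_3 too: without it 3 of 20 were higher, with a median of -0.11. In CB, with the 4 WT mice and 1 mutant at or below 400 CPM of choroid plexus genes, 7 of 20 were higher, with a median of -0.12. Nnat, which neurons also express, held the largest share of this sum, and the fibrillar collagens Col3a1 (139 CPM over P7 libraries) and Col1a2 (104) came next. Col3a1 stood at 0.40 (SE 0.22) in CX, 0.38 (SE 0.31) in HIP and 0.04 (SE 0.12) in CB. Endothelial markers were higher for 13, 13 and 12 of 14 with medians of 0.09, 0.17 and 0.10, mural markers for 9, 13 and 10 of 14 with 0.11, 0.24 and 0.05, and ependymal markers for 6, 8 and 8 of 8 with 0.14, 0.55 and 0.81. Without C1_3 the HIP counts were 12 of 14 endothelial (median 0.10), 11 of 14 mural (0.12) and 8 of 8 ependymal markers (0.53). With the 4 WT mice and 1 mutant kept in CB, the medians were 0.04, -0.04 and -0.27 in that order. Microglial markers were higher for 1, 2 and 2 of 6 and neuronal markers for 2, 0 and 2 of 6. No gene of these lists was called, and their part in the 8 genes' values was not tested.

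Genes that act with the 8 members were set beside them from lists by pathway, and none of these genes was called at any period or region. Around Cp, 6, 5 and 4 of 8 tested iron-handling genes had a P7 fold change above 0 in CX, HIP and CB, with medians of 0.07, 0.04 and 0.01, and the ferritin chains Ftl1 and Fth1 lay between -0.06 and 0.07. Around Ptgis, 10 of 16, 13 of 16 and 11 of 15 prostanoid genes were above 0 with medians of 0.07, 0.06 and 0.10, and Ptgds, the prostaglandin D synthase of arachnoid cells, stood at 0.30 (SE 0.32), 0.63 (SE 0.88) and 0.32 (SE 0.36). Around Enpep, angiotensin peptidases and receptors were above 0 for 2, 7 and 6 of 8 with medians of -0.14, 0.19 and 0.14, and Ace, the angiotensin-converting enzyme, stood at -0.06, 0.34 and 0.42. Around Npr3, the guanylyl cyclase receptor genes Npr1 (0.29, 0.19 and 0.22) and Npr2 (-0.08, 0.12 and 0.11) took part in a list with 2 of 5, 3 of 4 and 3 of 5 above 0. Without mutant C1_3 the HIP counts were 4 of 8 for iron, 7 of 16 for prostanoid (median -0.07), 5 of 8 for angiotensin (median 0.05) and 3 of 4 for natriuretic peptide genes.

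Partners of the matrix and binding proteins were set beside them in the same way. The Fraser complex genes beside Frem1 were above 0 for 2, 5 and 4 of 6, with Frem2 at 0.05, 0.19 and -0.06 and Fras1 at -0.12, 0.15 and 0.27. Small leucine-rich proteoglycans other than Dcn were above 0 for 9, 7 and 8 of 9 with medians of 0.12, 0.34 and 0.33. Among them biglycan (Bgn) stood at 0.07 (SE 0.18), 0.31 (SE 0.13) and 0.11 (SE 0.08), and osteoglycin (Ogn) at 0.47 (SE 0.27), 0.89 (SE 0.66) and 0.50 (SE 0.23). Other annexins were above 0 for 7 of 8, 7 of 9 and 8 of 9, but by medians of 0.12, 0.17 and 0.08, and Anxa5 and Anxa6, the most abundant with Anxa7, lay between 0.01 and 0.17. Genes bound by or related to the I-mfa domain were above 0 for 3, 5 and 4 of 6, with Tcf4 between -0.03 and 0.0023. Without mutant C1_3, 4 of 9 proteoglycans (median -0.03) and 5 of 9 annexins (median 0.05) were above 0 in HIP, and the counts of Fraser complex and I-mfa genes stayed at 5 of 6.

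E17.5 and adult mice were separate animals from those at P7, and there the difference was tested. The genes were chosen for their P7 difference, but with earlier results of these data known, so the choice was not made blind to the other periods. At E17.5 none of the 7 genes with enough reads was called in CX (0.00603% of genes were), HIP (0.00586%) or CB (0.00568%). Fold changes were above 0 for 4, 5 and 6 of 7 (49.5%, 50.8% and 51.1% of all genes), with medians of 0.04, 0.32 and 0.44 against all-gene medians of -0.0011, 0.0024 and 0.0025. DESeq2 called none of them either, and 0, 0 and 1 had an unadjusted p below 0.05 with mutants higher (0.585%, 1.31% and 1.66% of all genes). Anxa8 had 0 reads in every CX library, 0 to 4 in HIP and 0 or 1 in CB, which is too few for a fold change. Choroid plexus markers were lower in E17.5 mutant HIP for 12 of 12 tested genes, with a median of -1.78. Their sum ran from 31.2 to 4980 CPM in WT mice (median 56.7) and from 52.5 to 388 in mutants (median 124). The highest WT library was that of S2_11, and the next WT library held 182. By median sum the mutants were thus the higher group, and fold changes of the list without S2_11 are not given here. The part of choroid plexus in the HIP values of the 7 genes was not tested.

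Frem1 in CB came closest to a difference at E17.5. It ran from 7.47 over a median of 9.0 to 10.3 CPM in WT mice and from 8.61 over 11.6 to 20.3 in mutants, so that the groups overlapped. Its log2 fold change was 0.48 (SE 0.18, unadjusted p = 0.0168, adjusted p = 0.988, edgeR). Dcn in CB had the largest fold change of the period, 1.96 (SE 0.98, adjusted p = 0.988, edgeR), and it came from mutant mouse S4_3. That library held 25.2 CPM, the next mutant 2.11, and WT mice ran from 0.113 to 4.10. Without that mouse the value was 0.10, and that of Frem1 was 0.28. Dcn was the 1 gene called in E17.5 CB when 3 RUVs factors were added to the fit. Averaged over regions, none of the 7 genes was called (0.00537% of genes were), none had an unadjusted p below 0.05 (0.95% of genes, mutants higher) and the lowest adjusted p was 0.997 (limma), with Dcn at 0.49, Enpep at 0.47, Cp at 0.34 and Ptgis at 0.29.

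In adults none of the 8 genes was called in CX (0.00569% of genes were), HIP (0.00584%) or CB (0.00584%). Fold changes were above 0 for 8, 4 and 5 of 8 (52%, 48.7% and 50.3% of all genes) with medians of 0.07, 0.0016 and 0.04. DESeq2 called none of them, and 0, 1 and 1 had an unadjusted p below 0.05 with mutants higher (2.07%, 3.4% and 5.71% of all genes). Anxa8 in HIP was again higher in mutants, at 1.59, 1.04, 1.71, 0.947 and 0.95 CPM against 0.479, 0.579, 0.612, 0.849 and 1.11 in WT mice. All 5 mutants were above the WT median, and 1 WT mouse overlapped them. The log2 fold change was 0.78 (SE 0.26, unadjusted p = 0.0111, adjusted p = 0.796, edgeR).

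Frem1 in adult HIP had a fold change below 0. Mutants held 8.18, 5.89, 6.96, 6.71 and 7.44 CPM and WT mice 8.41, 6.50, 17.2, 13 and 7.89. No mutant was above the WT median, and the 2 highest WT libraries, from mice P35_17 and P35_26, were the WT libraries with choroid plexus sums above 400 CPM. The log2 fold change was -0.59 (SE 0.22, unadjusted p = 0.0184, adjusted p = 0.796, edgeR), where 2.84% of genes had an unadjusted p below 0.05 with mutants lower. Choroid plexus markers were lower in adult mutant HIP for 9 of 9 tested genes, with a median of -2.01, and the sum ran from 190 to 3640 CPM in WT mice and 224 to 585 in mutants. Mdfic in the same libraries was at -0.52 (SE 0.26). Without the 2 WT libraries and 1 mutant library above 400 CPM, Frem1 was at -0.18 and Mdfic at 0.06, and 7 of 9 choroid plexus genes were higher in mutants with a median of 0.17. At P7 the HIP value of Frem1 had likewise gone from 0.28 to -0.02 without C1_3, so no contrast between the periods is drawn. With 3 RUVs factors in the fit Frem1 was called in adult HIP, the 1 gene of the 8.

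Cp in adult CB was 29.8, 26.4, 27.9, 23 and 31.8 CPM in mutants and 23.2, 25.8, 18.7, 24.5 and 24.5 in WT mice. Only 1 mutant lay below the highest WT mouse, and the log2 fold change was 0.23 (SE 0.10, unadjusted p = 0.0436, adjusted p = 0.344, edgeR). Averaged over regions, adult fold changes ran from -0.17 for Frem1 to 0.21 for Anxa8, none was called (0.00525% of genes were), none had an unadjusted p below 0.05 (3.92% of genes, mutants higher) and the lowest adjusted p was 0.871 (limma). The difference between P7 and the other periods was not itself tested.

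**Figure D4:**
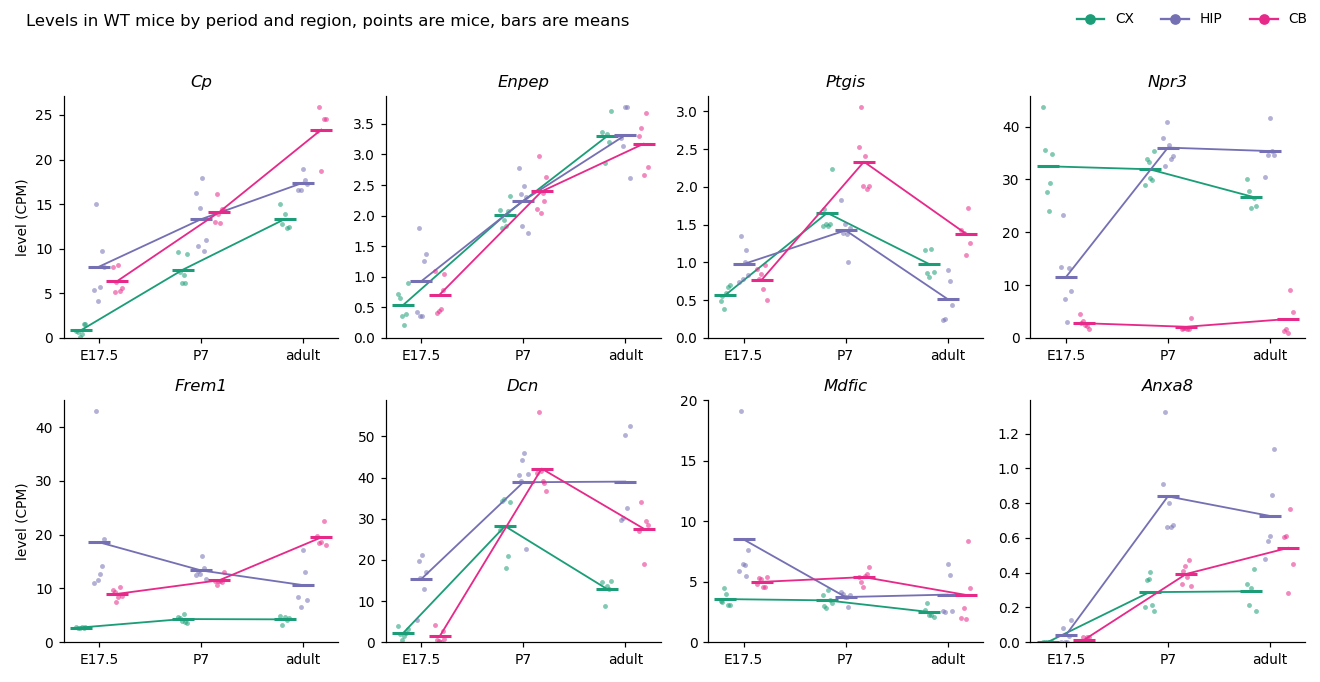
Level in CPM (vertical axis, from 0) of each gene in WT mice at E17.5, P7 and in adults, with points for mice, bars for means and lines joining the means of CX, HIP and CB. Npr3 is low in CB at each period, Cp rises with age in each region, and Ptgis is highest at P7.

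In WT mice the 8 genes had regional patterns of their own. Per kilobase of exon, which allows genes to be compared, Dcn was the most abundant at P7 in each region, with 4.83 CPM per kb in CX, 6.66 in HIP and 7.23 in CB. Npr3 came next in CX (3.40) and HIP (3.84), while in CB it was among the lowest at 0.224. Anxa8 was the lowest in each region, at 0.153, 0.446 and 0.209 in the order CX, HIP, CB. Differences between regions were tested within each period with mouse as a block. The P7 WT libraries were also part of the contrast by which the genes were chosen. At E17.5, 7 of 7 genes were called between HIP and CX (46.5% of all genes were), 5 between CB and CX (61.7%) and 4 between CB and HIP (49.5%). At P7 the numbers were 4, 8 and 4 of 8 (57%, 82.9% and 78.2% of all genes), and in adults 5, 5 and 5 of 8 (51.5%, 75.4% and 75.1%). Without WT mouse S2_6 or S4_4, the E17.5 count between CB and CX fell from 5 to 3.

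Npr3 had the steepest regional pattern. At E17.5 it stood at 32.5 ± 6.99 CPM in CX, 11.5 ± 6.96 in HIP and 2.78 ± 0.968 in CB (SD, n = 6). At P7 the levels were 31.9 ± 2.58, 36.0 ± 3.07 and 2.10 ± 0.845 (SD, n = 6), and in adults 26.8 ± 2.27, 35.4 ± 4.02 and 3.58 ± 3.43 (SD, n = 5). The highest adult CB level, 9.06 CPM, came from mouse P35_26, whose CB library had a choroid plexus sum of 4629 CPM. CB was 11.6-fold lower than CX at E17.5, 14.9-fold at P7 and 8.32-fold in adults, with adjusted p of 2.86e-07, 3.04e-13 and 1.81e-05 (edgeR). HIP was 3.02-fold lower than CX at E17.5 (adjusted p = 0.000368, edgeR), and at the later periods HIP and CX were not called apart, except at P7 without mouse C2_10 (log2 0.15). Adult HIP was 3.09-fold higher than E17.5 HIP (adjusted p = 0.00106, edgeR).

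Cp rose with age and was lowest in CX. It stood at 0.841 ± 0.596 CPM in CX, 7.99 ± 3.97 in HIP and 6.38 ± 1.37 in CB at E17.5 (SD, n = 6). At P7 it was 7.64 ± 1.54, 13.3 ± 3.42 and 14.1 ± 1.18 (SD, n = 6), and in adults 13.3 ± 1.15, 17.4 ± 0.983 and 23.3 ± 2.75 (SD, n = 5). HIP was 9.90-fold above CX at E17.5, 1.72-fold at P7 and 1.29-fold in adults, and CB 8.71-fold, 1.95-fold and 1.75-fold, each called. The adult order of CB, HIP and CX was called at both steps, while CB and HIP were not called apart at E17.5, or at P7 unless mouse C2_2 was left out (log2 0.25). From E17.5 to adult Cp rose 16.3-fold in CX, 2.19-fold in HIP and 3.70-fold in CB, with adjusted p of 3.95e-07, 0.00186 and 3.29e-08 (edgeR).

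Frem1 was lowest in CX at every period. Its E17.5 levels were 2.72 ± 0.108 CPM in CX, 18.6 ± 12.3 in HIP and 8.98 ± 1.04 in CB (SD, n = 6). They were 4.29 ± 0.662, 13.3 ± 1.47 and 11.5 ± 0.776 at P7 (SD, n = 6), and 4.24 ± 0.676, 10.6 ± 4.42 and 19.5 ± 1.84 in adults (SD, n = 5). The order of HIP and CB thus turned round: CB was 1.89-fold lower at E17.5 (adjusted p = 0.00602, edgeR), not called apart at P7 unless mouse C2_10 was left out (log2 -0.19) and 1.94-fold higher in adults (adjusted p = 0.000232, edgeR). Both were called above CX at each period. Between E17.5 and adult, Frem1 rose 1.59-fold in CX and 2.19-fold in CB. In HIP it was 1.74-fold lower in adults (adjusted p = 0.0734, edgeR), a call that was lost without WT mouse S2_11, where the log2 value went from -0.80 to -0.36, and without P35_11 (-0.72), P35_15 (-0.66) or P35_31 (-0.70). The E17.5 HIP library of S2_11 had a choroid plexus sum of 4980 CPM. Adult HIP libraries of P35_17 and P35_26 had sums of 3640 and 2605 CPM. The part of choroid plexus in the order of HIP and CB was not tested.

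Dcn had the largest change between periods in CB, though not in CX or HIP. It stood at 2.18 ± 1.22 CPM in CX, 15.4 ± 5.69 in HIP and 1.43 ± 1.63 in CB at E17.5 (SD, n = 6). P7 levels were 28.2 ± 7.39, 38.9 ± 8.40 and 42.2 ± 7.02 (SD, n = 6), and adult levels 12.9 ± 2.42, 39.0 ± 11.4 and 27.6 ± 5.45 (SD, n = 5). From E17.5 to adult its log2 difference was 2.59 in CX, 1.36 in HIP and 4.32 in CB, with adjusted p of 1.67e-05, 0.000813 and 1.14e-05 (edgeR). At E17.5 HIP was 9.25-fold above CX and CB 15.9-fold below HIP, both called. HIP and CB were also called above CX at P7 and in adults. The call between HIP and CX at P7 (log2 0.46) was lost without mouse C2_2 (0.30), C4_5 (0.37) or C1_5 (0.44), and that between CB and HIP in adults (-0.45) without P35_17 (-0.24) or P35_31 (-0.34).

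Ptgis changed its regional order with age. It was at 0.567 ± 0.117, 0.977 ± 0.243 and 0.773 ± 0.174 CPM at E17.5 in the order CX, HIP, CB (SD, n = 6). It was at 1.65 ± 0.299, 1.42 ± 0.264 and 2.33 ± 0.427 at P7 (SD, n = 6) and at 0.977 ± 0.179, 0.515 ± 0.300 and 1.38 ± 0.229 in adults (SD, n = 5). HIP, called above CX and not called apart from CB at E17.5, was the lowest region in adults, 1.97-fold below CX and 2.77-fold below CB (adjusted p of 0.0183 and 0.000572, edgeR). Ptgis rose 1.75-fold in CX and 1.80-fold in CB from E17.5 to adult and fell 1.88-fold in HIP (adjusted p of 0.002, 0.00106 and 0.0299, edgeR). Its E17.5 call between CB and CX (log2 0.47) was lost without mouse S2_6 (0.39), S2_11 (0.46), S3_6 (0.34) or S4_4 (0.46). The adult regions CB and CX were called apart only without P35_11 (0.56) or P35_17 (0.50), from 0.49 with all mice.

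In adults Enpep had much the same level in each region. HIP was called 1.76-fold above CX at E17.5, and CB 1.23-fold above CX at P7. Enpep was at 0.535 ± 0.259, 0.928 ± 0.627 and 0.709 ± 0.313 CPM in CX, HIP and CB at E17.5 (SD, n = 6). P7 levels were 2.01 ± 0.198, 2.24 ± 0.404 and 2.40 ± 0.354 (SD, n = 6), and adult levels 3.30 ± 0.307, 3.32 ± 0.486 and 3.17 ± 0.433 (SD, n = 5). The adult regions differed by less than the SD within each. From E17.5 to adult Enpep rose 6.23-fold in CX, 3.47-fold in HIP and 4.55-fold in CB, with adjusted p of 8.68e-07, 0.000973 and 2.92e-06 (edgeR). The E17.5 call between HIP and CX (log2 0.81) was lost without S2_11 (0.58), S3_8 (0.81), S4_4 (0.63) or S4_7 (0.86), and the P7 call between CB and CX (0.30) without C1_8 (0.20) or C2_2 (0.22).

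Mdfic fell with age in both CX and HIP. Its E17.5 levels were 3.56 ± 0.560, 8.49 ± 5.27 and 4.98 ± 0.381 CPM in CX, HIP and CB (SD, n = 6). They were 3.45 ± 0.552, 3.73 ± 0.440 and 5.38 ± 0.578 at P7 (SD, n = 6) and 2.49 ± 0.481, 3.93 ± 1.91 and 3.90 ± 2.68 in adults (SD, n = 5). From E17.5 to adult it fell 1.40-fold in CX and 2.15-fold in HIP (adjusted p of 0.0101 and 0.0214, edgeR), while CB was not called (log2 -0.33), except without P35_26 (-0.80). WT mouse S2_11, at 19.1 CPM in E17.5 HIP against 7.65 for the next, carried part of this: without it the HIP value went from -1.10 to -0.68 in log2, and was still called. That library had a choroid plexus sum of 4980 CPM. Mouse P35_26 held the highest Mdfic of adult CB, 8.32 CPM, and a choroid plexus sum of 4629 CPM there. The part of choroid plexus in these Mdfic levels was not tested. P7 CB was 1.62-fold above CX and 1.51-fold above HIP, and no adult regions were called apart. Its E17.5 call between CB and CX (log2 0.50) was lost without S2_6 (0.51), S4_4 (0.49) or S4_7 (0.45).

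Anxa8 appeared after birth. It had at most 4 reads in any E17.5 library. P7 levels were 0.288 ± 0.0997, 0.839 ± 0.259 and 0.392 ± 0.0588 CPM in CX, HIP and CB (SD, n = 6), and adult levels 0.293 ± 0.0960, 0.726 ± 0.255 and 0.542 ± 0.182 (SD, n = 5). In WT mice it was highest in HIP: 2.86-fold above CX at P7 and 2.43-fold in adults (adjusted p of 5.29e-05 and 0.00494, edgeR). HIP was 1.99-fold above CB at P7 (adjusted p = 0.000603, edgeR), and not called above it in adults. The calls between CB and CX were lost without C1_5 (0.48), C4_5 (0.38) or C2_10 (0.46) at P7, from 0.52 in log2, and without P35_15 (0.72) in adults, from 0.88.

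Counted over WT mice from E17.5 to adult, 7 of 7 genes were called in CX (85% of all genes were), 8 of 8 in HIP (80.3%) and 5 of 7 in CB (81.8%). In CX the fall of Npr3, 1.19-fold, was the weakest of these calls, and it was lost without any of 7 mice, its log2 value lying between -0.16 and -0.25 in those fits against -0.25 with all mice.

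Outside the 8 genes, the protein-coding genes whose deviations over the libraries of the 34 mice were most like the mean of the 8 were Lepr (0.861), Postn (0.822), Pcolce (0.812), Cped1 (0.811), Slc16a12 (0.808), Col8a2 (0.803), Cgnl1 (0.803), Colec12 (0.802) and Wdr86 (0.789). Lepr is the leptin receptor, Postn encodes the matrix protein periostin, Pcolce helps trim procollagen, Col8a2 is a basement membrane collagen and Colec12 is a scavenger receptor. The values are Pearson correlations of log2 CPM over libraries that share mice and dissection, and they are given with no test.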

How the data were processed

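RNA of each region was depleted of ribosomal RNA, made into stranded total RNA libraries and sequenced in pairs. The authors trimmed reads with cutadapt 1.14, aligned them with STAR 2.5.3a to GRCm38 and deposited RSEM 1.3 expected counts per gene, which were rounded to whole numbers here, as 5.76% of values were not whole. Of 108 libraries, 6 were left out, from 2 adult mice whose genotype differed between the sample labels and the study's supplementary quality metrics. Symbols and coordinates came from GENCODE M21, and 53274 of 53465 IDs had a symbol.

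Genes were kept with filterByExpr (count minimum 10, total 15) and scaled by TMM. Genotypes were compared within each period and region with the quasi-likelihood test of edgeR 4.0.16, WT regions with mouse as a block, and the mean over regions with limma 3.58.1 (voom, duplicateCorrelation by mouse), each over all genes at an adjusted p below 0.1, in R 4.3.3. The fits recovered planted changes in simulated data. No change was planted in genes of low level, so recovery at the level of Anxa8 was not tested. The share recovered at small differences is not reported here. Mice carry replicate numbers, and their deviations from group means correlated above 0.1 in every pair in E17.5 CX (0.113 to 0.757), and not in the other 8 comparisons. In the other comparisons except P7 HIP, same-numbered mice still had a median correlation above that of other pairs. The genotype fits reported here held no term for pairs, so they left any such likeness out, in E17.5 CX and elsewhere. The replicate number entered as a block only in an alternative. No pair of 240 replicate libraries agreed within sampling noise. Total counts per library set the precision, and Anxa8 could not be tested at E17.5 for want of reads. The 8 genes, the marker and pathway lists and the tests were chosen with earlier results of these data known. Named genes are the 8, Cul3, the most abundant genes of each described list and the 10 genes most correlated with the 8, of which 1 is not reported here. Alternatives were upper-quartile scaling, no count filter, DESeq2 1.42.0, the likelihood ratio test, RUVs with 3 factors, an Xist covariate, the replicate number or the mouse-name prefix as a block, leaving out each mouse, the 2 adult mice under either genotype and, added after seeing the data, a choroid plexus covariate and leaving out libraries above 400 CPM of that list.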

Additional observations from a re-analysis of the deposited data

Results flagged for a closer look

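Among 138 sets of 4 or more libraries (1 gene, period, region and genotype each), 18 held 1 library whose gap to the nearest other passed Dixon's 95% limit, 16 of them as the highest, where chance gives about 1 in 20. Of these, 5 belonged to mutant mouse C1_3 in P7 HIP, with Cp at 34.8 CPM (next 19.4), Frem1 at 30.7 (next 16.7), Mdfic at 13.7 (next 4.89), Enpep at 4.13 (next 3.11) and Ptgis at 3.18 (next 2.13). This library also held the highest choroid plexus sum of its group, 4727 CPM. Mutant mouse S4_3 stood high in E17.5 CB, with Dcn at 25.2 CPM (next 2.11), Frem1 at 20.3 (next 12.7) and Ptgis at 1.56 (next 0.993). WT mouse S2_11 stood high in E17.5 HIP, with Frem1 at 43 CPM (next 19.1) and Mdfic at 19.1 (next 7.65). This library too held the highest choroid plexus sum of its group, 4980 CPM. WT mouse C2_10 stood high at P7, with Frem1 at 13 CPM (next 11.4) and Npr3 at 3.82 (next 1.89) in CB and Ptgis at 2.24 (next 1.71) in CX. Its CB library held the highest choroid plexus sum of the WT mice there, 1796 CPM.

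Dcn had 3 further high libraries: 56 CPM (next 41.6) in WT mouse C1_8 and 62.3 (next 43.2) in mutant C1_7, both in P7 CB, and 2.95 (next 1.41) in mutant S2_10 in E17.5 CX. WT mouse C2_4 was low in P7 HIP, with Dcn at 22.5 CPM (next 39.1) and Mdfic at 2.9 (next 3.70).

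Mouse P35_22, left out because its genotype differed between sources, lay above every adult WT library for Cp in CX (18.7 CPM against 15.1) and CB (27.8 against 25.8), Anxa8 in HIP (1.17 against 1.11) and Dcn in CX (16 against 14.8) and HIP (55.9 against 52.5). These values entered no main comparison. The mouse was put back, under either genotype, only in alternatives.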

How the results depend on the processing

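The 8 genes' counts of calls between genotypes stayed the same in 223 of 235 alternatives. With RUVs, 1 gene was called in E17.5 CB, 2 in P7 HIP, 5 in P7 CB and 1 in adult HIP, against 0 in each. DESeq2 and the likelihood ratio test each called 1 in P7 HIP. Leaving out 1 mouse gave 0 to 1 in P7 HIP (1 without WT replicate 2), 0 to 1 in P7 CB (1 without mutant replicate 3), 0 to 1 for the P7 mean over regions (1 without C2_10, C2_5 or C4_3) and 3 to 5 for WT CB over CX at E17.5. With the mouse-name prefix as a block, the P7 mean over regions gave 3. The cause of these changes was not tested, and calls at P7 are no support, since P7 values chose the genes.

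With the replicate number as a block, 0 genes were called in each of the 9 genotype comparisons, and without the mouse block the WT counts between regions were 6, 5 and 4 at E17.5, 4, 8 and 4 at P7 and 5, 5 and 5 in adults. In 8 of the 9 comparisons not every same-numbered pair passed 0.1, which does not show that such mice shared only a number. Their median correlation was 0.331 in E17.5 HIP and 0.294 in E17.5 CB, against -0.0298 and -0.0164 for other pairs. Only in P7 HIP was it below that of other pairs (-0.0618 against 0.00175). At E17.5 and P7 same-numbered mice also shared a name prefix. The replicate block changed no call between genotypes. Leaving the mouse block out of the WT fits lost 1 call, that of Enpep in E17.5 HIP over CX (log2 0.87).

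Of 520 alternative P7 values per region, 9 moved by more than 1 SD, all in CB and all with a choroid plexus adjustment, and 9 changed sign. That SD is the spread within groups, which in HIP takes in the high library of mutant C1_3. Without that library Mdfic in HIP went from 0.66 to 0.21, Cp from 0.44 to 0.14 and Frem1 from 0.28 to -0.02. None of these counts as moved, and Anxa8 in HIP stayed at 1.17. Of 974 alternative WT values, 925 kept direction and call, 41 lost and 8 gained a call, and 0 calls reversed. Anxa8 had too few reads to be tested at E17.5, where total counts ran from 15126114 to 36655043 per library.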
